A study of Homo sapiens with 4 samples.

Results

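Mitochondrial ribosomal protein genes were taken as the genes whose symbol begins with MRPL or MRPS and a digit, on probe sets (groups of array probes for a transcript) that are annotated to a single gene. There were 75 such genes, measured by 140 of the 54675 probe sets on the array. The pseudogene MRPL45P2 and the antisense transcript MRPL20-AS1 were left out, and MRPL53 and MRPS24, whose probe sets name several genes, were not analysed here. HEK293, an established line of human embryonic kidney origin, gave the RNA, which was hybridised to 4 Affymetrix arrays. Of these, 2 held cells kept for 7 days at 450 mg/dl glucose (high glucose) and 2 held cells kept for as long at 100 mg/dl (low glucose). Both groups grew in DMEM with fetal calf serum. The labels speak of biological replicates and do not say whether each came from its own culture, so p-values measure the spread between these samples.

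Mitochondria translate the few messages of their own genome on a dedicated ribosome, the mitoribosome. Its ribosomal RNAs come from mitochondrial DNA, while every protein of its large (MRPL) and small (MRPS) subunits is encoded in the nucleus, made on cytosolic ribosomes and imported. Some of these proteins descend from those of the bacterial ribosome, and others exist only in mitochondria. The messages it reads encode core subunits of the respiratory chain and of ATP synthase.

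The deposited signals of each array had a trimmed mean of 200.02, and arrays of a group correlated over genes with r of 0.989 and 0.990, against 0.928 to 0.931 between groups. Genes were measured where the mean signal reached 32.9, which left 12242 genes and all 75 members. Over all these genes the median log2 difference, high minus low glucose, was -0.10. The 24 probe sets of the poly-A spikes, bacterial transcripts added before labelling, were higher in high glucose by a median of 1.94 log2 units (3.84-fold), and 0 of the 75 members differed by more than that. Their part in the results below was not tested. Of 8 genes fixed as HEK293 markers, 7 were measured, while 0 of 4 haematopoietic, 0 of 4 hepatocyte and 1 of 4 endothelial markers were. Of the HEK293 markers the keratins KRT8 and KRT18 and the transcription factor LHX1 were called higher in high glucose, and VIM and EYA1 lower, and the part of this in the results was not tested. Fibroblast markers were measured in 2 of 5 genes, and the summed signal of all 5 was 534 and 524 on the high and 328 and 378 on the low glucose arrays. Hybridisation controls had a median of 486 on high glucose replicate 1 and of 869 to 891 on the other arrays. With high glucose replicate 1 left out, the median log2 difference was 0.47 over the members and -0.10 over all genes. With all 4 arrays these medians were 0.49 and -0.10.

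Messages for the mitochondrial ribosome were higher in high glucose across most of the complex. Of the 75 members, 59 rose, 4 fell and 12 did not pass the test (limma, Benjamini-Hochberg adjusted p under 0.05, adjusted over all 12242 genes). The members called higher were 78.7% of all members, where 24.3% of all measured genes were called higher and 33.3% lower. The median member signal was 1458 and 1480 on the high and 1071 and 1080 on the low glucose arrays. The median log2 difference of the members was 0.49, which is 0.59 above the median of all genes, and it ranged from -0.48 in MRPL10 to 1.57 in MRPS17. Changes were moderate in size. A called rise of at least 2-fold was found for 11 members (14.7%, against 3.42% of all genes) and of at least 1.5-fold for 32 (42.7%, against 10.8%), and no fall reached 1.5-fold.

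**Figure D1:**
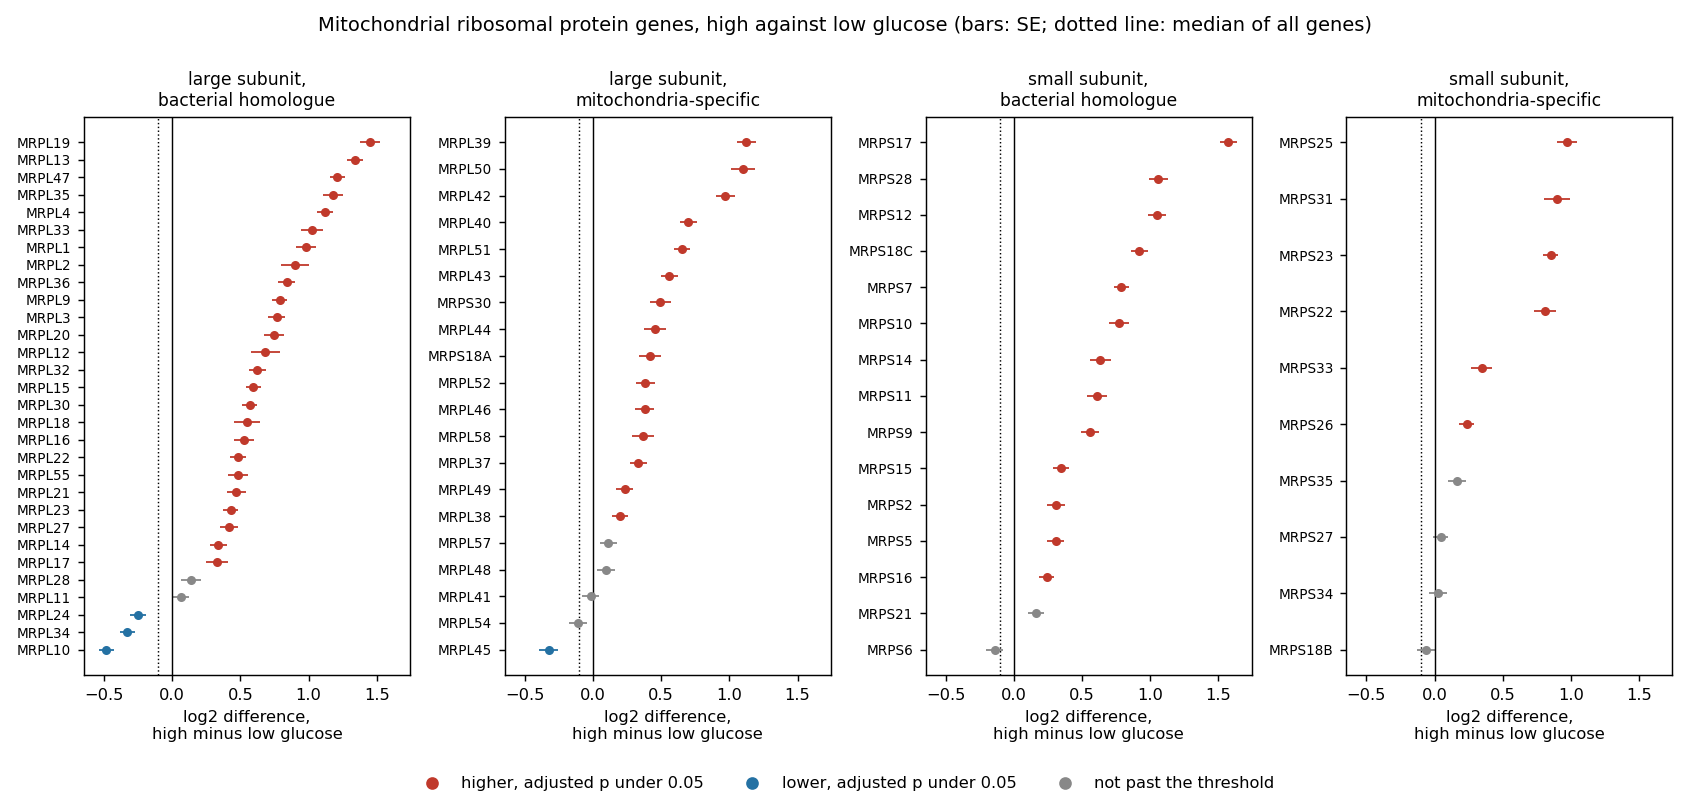
Log2 difference between high and low glucose for each of the 75 mitochondrial ribosomal protein genes, in 4 panels by subunit and origin, with SE bars from the limma fit over 4 arrays. Red points passed the threshold upward (59 genes), blue points downward (4 genes), grey points did not pass, and the dotted line marks the median of all genes at -0.10.

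In 65 members both high glucose arrays lay above both low glucose arrays (86.7%, against 33.6% of all genes), and in 6 members they lay below. The 71 members in all whose groups did not overlap compare with 79.8% of all genes. Replicates of a group were close, with a median distance of 0.06 log2 units in high and 0.08 in low glucose. The members were all well above the filter, with mean signals over the 4 arrays from 349 to 4382. Among the 5775 genes within that range of signal, 36.5% were called higher and 33% lower, and their median difference was 0.03. After median centring of the arrays, with the all-gene median then at 0.07, 66 members were called higher and 1, MRPL10, lower. Of all genes 33.1% were called higher and 23.2% lower after median centring, against 24.3% and 33.3% before. The share of higher calls among all called genes was 42.1% before and 58.8% after this centring.

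The largest rise was that of MRPS17, a protein that binds the ribosomal RNA of the small subunit. Its signal was 1859 and 1746 on the high and 590 and 621 on the low glucose arrays, a rise of 1.57 ± 0.06 log2 units (SE, n = 2 per group, limma adjusted p = 2.6e-06). MRPL19, which lies at the interface of the subunits, read 1029 and 1115 in high and 407 and 378 in low glucose and rose by 1.45 ± 0.07 log2 units (limma adjusted p = 7.4e-06). MRPL13, a core protein of the large subunit, stood at 1896 and 1961 against 741 and 781 and rose 2.53-fold (limma adjusted p = 3.8e-06). In each of these genes the lowest high glucose array was more than 1.5-fold above the highest low glucose array.

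MRPL47, at the rim of the tunnel exit through which the new chain leaves, had signals of 2470 and 2500 in high against 1061 and 1087 in low glucose (2.31-fold, limma adjusted p = 4.2e-06). MRPL4, which reaches into the wall of that tunnel, had 1839 and 1830 against 815 and 870 (2.18-fold). The remaining members of the 10 largest rises were MRPL35 (2.26-fold), MRPL39, a protein of the mitochondrial large subunit related to threonyl-tRNA synthetase (2.18-fold), MRPL50 (2.14-fold), MRPS28 (2.08-fold) and MRPS12 (2.07-fold). MRPS12 is the counterpart of a bacterial protein that sits at the decoding centre, and its arrays read 2441 and 2427 against 1122 and 1231.

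**Figure D2:**
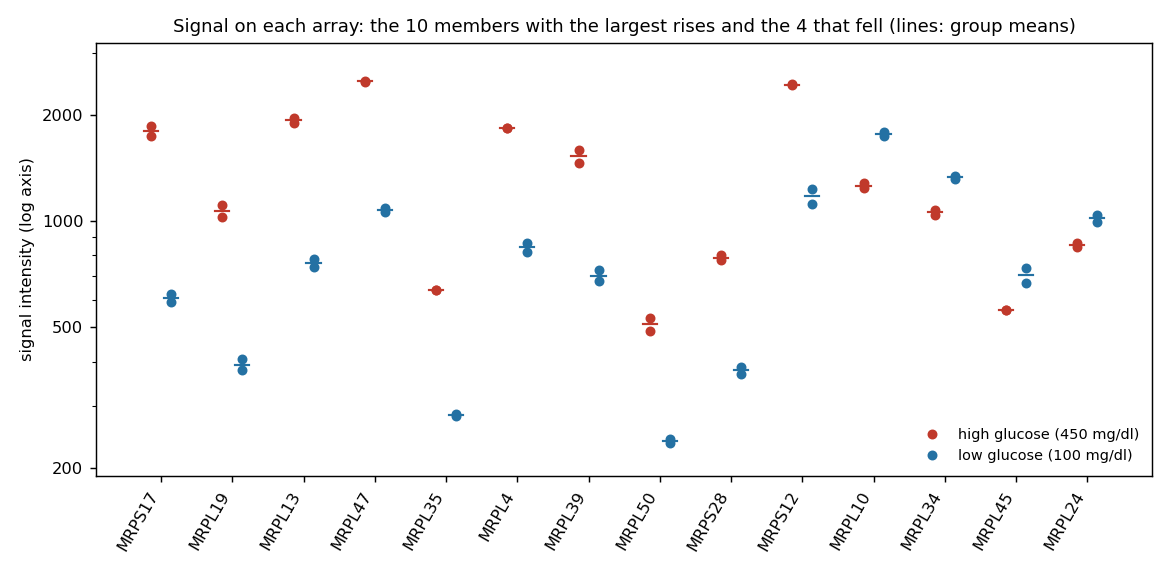
Signal intensity on a log axis for the 10 members with the largest rises and the 4 members that fell. Each point is 1 array, red for high and blue for low glucose, and short lines are group means. The genes were chosen as past the threshold with groups that do not overlap, and MRPS17 shows the widest gap between group means, at 2.97-fold.

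The 4 members that fell belong to the large subunit. In the small subunit MRPS6 was called lower after quantile normalization (-0.19, limma adjusted p = 0.0294) and MRPS14 without _x_at and _s_at probe sets, whose names mark probes that may read several transcripts (-0.75, limma adjusted p = 0.00374). MRPL10, the base of the stalk that recruits translation factors, had signals of 1279 and 1241 in high against 1783 and 1739 in low glucose and fell by 0.48 ± 0.06 log2 units (limma adjusted p = 2.4e-04). MRPL34 read 1075 and 1043 against 1319 and 1341 (log2 difference -0.33 ± 0.06). MRPL45, which links the ribosome to the inner membrane beside the tunnel exit, read 559 and 560 against 735 and 669 (-0.33 ± 0.07). MRPL24, also near the exit, read 844 and 866 against 1043 and 997 (-0.25 ± 0.06). After median centring MRPL10 stayed past the threshold, while the others did not, with log2 differences of -0.16 (adjusted p = 0.12) for MRPL34, -0.16 (adjusted p = 0.14) for MRPL45 and -0.08 (adjusted p = 0.39) for MRPL24.

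By subunit, 40 of 50 measured large subunit members rose and 4 fell (median 0.49), and 19 of 25 small subunit members rose and 0 fell (median 0.56). MRPS18A and MRPS30 were counted with the large subunit, where they reside in spite of their names. MRPS18A and MRPS18B were counted as mitochondria-specific, though their paralog MRPS18C was counted among members with a bacterial homologue. By origin, 38 of 45 members with a bacterial homologue rose and 3 fell (median 0.60), and 21 of 30 mitochondria-specific members rose and 1 fell (median 0.37). The smallest of these medians was 0.29, in the 10 mitochondria-specific proteins of the small subunit, where 6 rose. No test of the difference between these classes was made, and their ranges overlapped broadly.

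Within the large subunit, members at the same site did not share one value. Of the 3 measured stalk proteins, MRPL12, which contacts the translation factors, rose by 0.68 ± 0.11 log2 units, MRPL11 stood at 0.07 ± 0.06 without passing, and MRPL10 fell. MRPL12 had signals of 2950 and 3175 in high against 1698 and 2143 in low glucose. Of 6 members listed for the central protuberance, a lobe of the large subunit, 5 rose, led by MRPL40 at 0.70 ± 0.06, and MRPL48 stood at 0.10 ± 0.06. Among 7 members listed for the region of the tunnel exit, a list without MRPL4, 5 rose and 2 fell, from -0.33 in MRPL45 to 1.21 in MRPL47.

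The 12 members that did not pass lay between -0.14 in MRPS6 and 0.16 in MRPS35 and MRPS21. Those 3 and MRPL54, MRPL57, MRPL48, MRPL28 and MRPS27 had arrays that did not overlap between the groups, which is 8 of the 12, where 79.8% of all genes did not overlap. MRPL41, one of the brighter members, read 4013 and 4135 in high and 4072 and 4170 in low glucose, so its groups overlapped. The 3 paralogs of the MRPS18 family gave different values. MRPS18C, in the small subunit, read 1507 and 1399 against 766 and 767 and rose by 0.92 ± 0.06 log2 units. MRPS18A, in the large subunit, read 654 and 656 against 525 and 458 and rose by 0.42 ± 0.08. MRPS18B, also in the small subunit, read 776 and 868 against 853 and 859, overlapped between groups and did not pass (-0.06 ± 0.07). A second, dimmer MRPS18B probe set was called lower in the fit over probe sets, with 637 and 622 against 748 and 732 (-0.23 ± 0.06, limma adjusted p = 0.018).

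A gene can be read by several probe sets, and the values above come from the brightest. Of the 140 member probe sets, 122 passed the filter, and 80 of these (65.6%) were called higher and 6 lower when the same limma test was run on all 27307 probe sets, of which 23.1% were called higher and 27.2% lower. The 47 probe sets that were not the brightest of their gene had a median log2 difference of 0.36, with 21 called higher, 2 lower and 24 not called. Of 28 members with several measured probe sets, 7 had all of them called higher, MRPL41 had none called, and 19 mixed calls in 1 direction with probe sets that did not pass. MRPL4 agreed across its 3 probe sets, at 1.12 ± 0.06, 1.10 ± 0.06 and 1.01 ± 0.10 log2 units. MRPS14 was called in opposite directions. Its brightest probe set rose by 0.63 ± 0.08 log2 units, with 1441 and 1288 in high and 831 and 926 in low glucose, and its dimmer one fell by 0.75 ± 0.15, with 105 and 107 against 192 and 165. The mean of both stood at -0.0568 (adjusted p = 0.49). For MRPL47 the second probe set was dim, at 25 and 32 against 54 and 47, and stood at -0.82 ± 0.30 without passing. With the mean of all probe sets per gene 54 members were called higher, where 23.3% of all genes were higher and 30.9% lower. MRPL47 did not pass with that mean (0.19, adjusted p = 0.13). Without probe sets that may read several transcripts (_x_at and _s_at names) only 40 members were measured, 23 of them higher. Of the 10444 genes measured in that setting, 20.5% were called higher and 29.1% lower. MRPS18A (0.09, adjusted p = 0.46) and MRPL35 (0.37, adjusted p = 0.27) did not pass there.

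**Figure D3:**
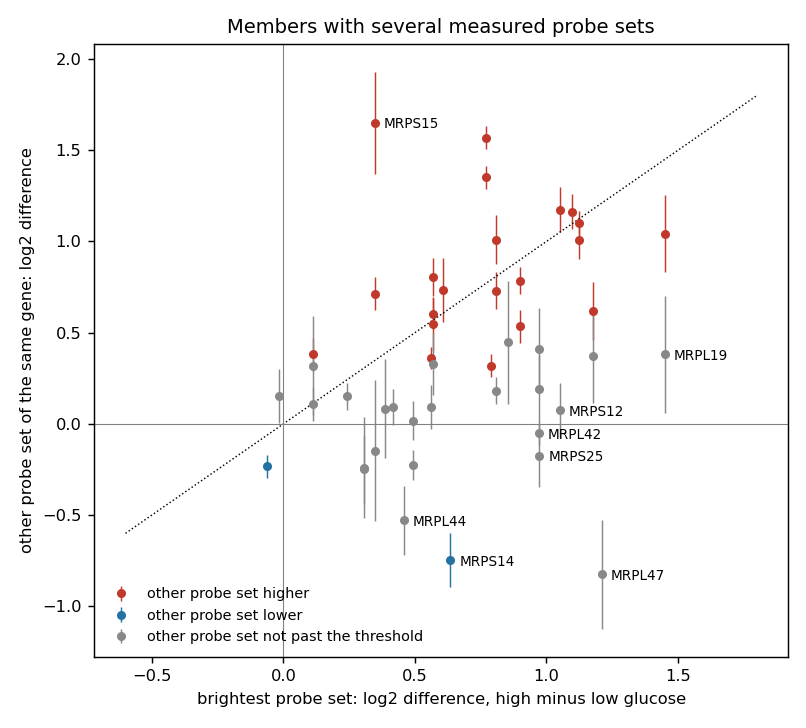
Log2 difference of each further probe set (vertical, SE bars) against that of the brightest probe set of the same gene (horizontal), for the 28 members with several measured probe sets. Most of the 47 points lie above 0, and named genes are those whose probe sets differ most, with MRPS14 called in opposite directions and the dim MRPL47 probe set at -0.82.

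Proteins of the mitoribosome that carry other names went both ways, and OXA1L, an insertase that works with the ribosome and was listed with them, fell. GADD45GIP1, a large subunit protein, rose by 0.65 ± 0.08 log2 units, with 1078 and 1233 in high and 734 and 736 in low glucose. PTCD3 and CHCHD1, both of the small subunit, rose by 0.51 ± 0.07 and 0.37 ± 0.06. DAP3, a further small subunit protein, fell by 0.33 ± 0.06. OXA1L, the insertase that takes up new chains from the ribosome at the inner membrane, read 837 and 823 in high and 2011 and 2084 in low glucose. It fell by 1.30 ± 0.06 log2 units (limma adjusted p = 3.4e-06), a larger change than the fall of any MRPL or MRPS gene.

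Factors that work with the mitoribosome were counted in the same way, with no test against the members. The shares over all measured genes were 24.3% higher and 33.3% lower. Of 14 measured mitochondrial translation factors 9 rose and 1 fell (median 0.38). GUF1, a translation GTPase, read 305 and 305 against 109 and 118 and rose by 1.43 ± 0.12 log2 units. SLIRP, an RNA-binding partner of LRPPRC, rose by 1.01 ± 0.07, the initiation factor MTIF2 by 0.98 ± 0.07 and the elongation factor TSFM by 0.61 ± 0.07, though TSFM did not pass with the mean of its probe sets (0.22, adjusted p = 0.068). The 1 factor that fell was the release factor family member MTRF1, at -0.52 ± 0.17. Leaving out high glucose replicate 1, low glucose replicate 1 or low glucose replicate 2 gave 0 factors called lower. So did quantile normalization, median centring, cyclic loess normalization and a stricter signal filter. Of 26 mitoribosome assembly factors 12 rose and 4 fell (median 0.15). Those that fell were YBEY (-0.70 ± 0.09), METTL17 (-0.45 ± 0.07), NOA1 (-0.44 ± 0.07) and NSUN4 (-0.39 ± 0.10). MALSU1, which holds back premature joining of the subunits, read 3522 and 3516 against 1821 and 1772 and rose by 0.97 ± 0.06. TRUB2, FASTKD2 and MTERF3 rose by 0.83, 0.81 and 0.72, and FASTKD2 did not pass without _x_at and _s_at probe sets (0.17, adjusted p = 0.70).

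Genes that transcribe and keep mitochondrial DNA included 7 of 15 that rose and 2 that fell (median 0.12), against 24.3% and 33.3% of all genes. SSBP1, which binds single-stranded mitochondrial DNA, read 4645 and 4958 against 2473 and 2701 and rose by 0.89 ± 0.07 log2 units. TFAM, the main packaging and transcription factor of mitochondrial DNA, rose by 0.69 ± 0.06 and did not pass without _x_at and _s_at probe sets (0.19, adjusted p = 0.23). MTERF1 rose by 1.26 ± 0.22. NRF1 and GABPA, transcription factors of nuclear genes for mitochondria, stood at 0.04 ± 0.11 and 0.12 ± 0.12 and did not pass, and GABPB1, the partner of GABPA, fell by 0.56 ± 0.07. With the mean of its probe sets GABPB1 was at -0.004 (adjusted p = 0.97).

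Of 7 measured transcripts encoded by mitochondrial DNA itself, 1 rose, 1 fell and 5 did not pass (median -0.14). ND6, a subunit of complex I encoded on the opposite strand from most others, read 1089 and 1399 in high and 549 and 615 in low glucose and rose by 1.09 ± 0.12 log2 units. ATP6, a subunit of ATP synthase, read 7679 and 10303 against 12080 and 12312 (-0.46 ± 0.13, limma adjusted p = 0.022), and it did not pass without low glucose replicate 1 (adjusted p = 0.0805) or 2 (adjusted p = 0.102). Its direction turned to 0.10 (adjusted p = 0.461) with the mean of its probe sets and to 0.66, called higher, without _x_at and _s_at probe sets (adjusted p = 0.0215). Between 0 and 4 of the 7 were called lower over the alternatives, and after quantile normalization 5 were called higher, so the direction of this group changed with the scaling. On high glucose replicate 1, 5 of the 7 (ATP6, COX1, COX2, ND4 and ND2) had their lowest value.

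Genes for proteins of the cytosolic ribosome moved the other way on the same arrays. Of 52 measured cytosolic ribosomal protein genes 48 fell and 0 rose, where 33.3% of all genes fell and 24.3% rose. Their median was -0.50 log2 units, against 0.49 for the mitochondrial members. RPL36 had signals of 7736 and 8879 in high and 14770 and 15500 in low glucose (-0.87 ± 0.10), and RPS29, RPS9 and RPL12 stood at -0.84, -0.73 and -0.71. After quantile normalization the cytosolic median was -0.04, with 16 genes lower and 3 higher, while 58 mitochondrial members were still called higher. Of all genes 25.6% were called higher and 30.8% lower after quantile normalization. High glucose replicate 1 held the lowest value of 51 of the 52 cytosolic genes and of 5 of the 75 mitochondrial members, against 29.3% of all genes, and without it 46 cytosolic genes were called lower, with a median of -0.34. Median centring gave 21 cytosolic genes lower, and leaving out low glucose replicate 1 or 2 gave 28 or 17.

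**Figure D4:**
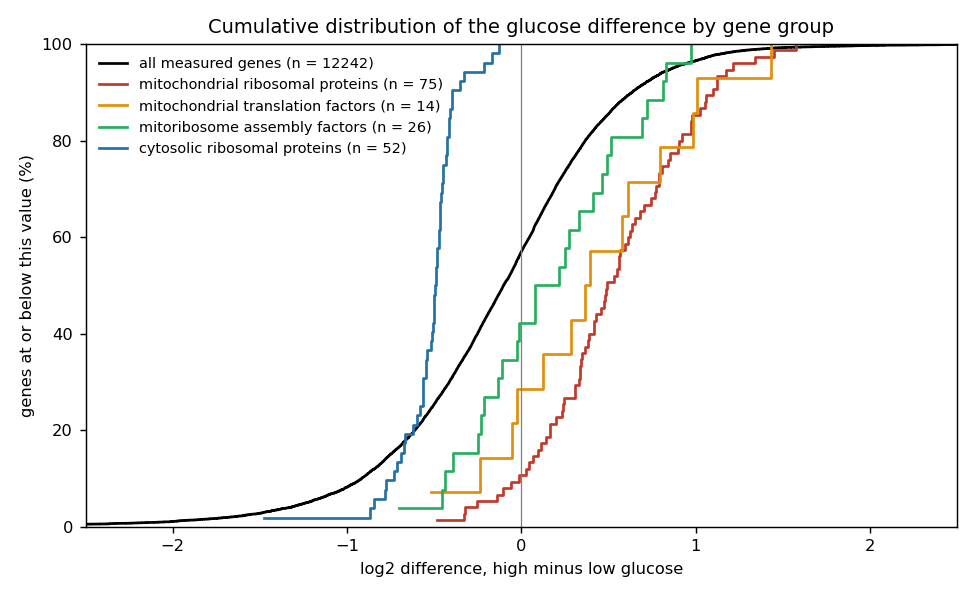
Cumulative share of genes (vertical, percent) at or below a given log2 difference between high and low glucose (horizontal), for all 12242 measured genes, the 75 mitochondrial ribosomal protein genes, 14 mitochondrial translation factors, 26 mitoribosome assembly factors and 52 cytosolic ribosomal protein genes. The median is 0.49 for the mitochondrial and -0.50 for the cytosolic ribosomal proteins, with all genes at -0.10.

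Since many of these genes moved together, their promoters were read from RefSeq (GRCh38.p14), which matched 67 of the 75 members with 250 bases before and 50 after the start. Textbook motifs of nuclear genes for mitochondria were searched on both strands. They were the ETS site CCGGAAG read by GABPA, the YY1 site AAGATGGC, the consensus site of NRF1 with 1 mismatch allowed, and the E-box CACGTG. The ETS site was in 28 member promoters (41.8%), against 19.4% of the promoters of measured genes and 10.7% of all promoters of that length. The YY1 site was in 19 (28.4%, against 5.46% and 3.03%), the NRF1 site in 10 (14.9%, against 14.7% and 7.94%) and the E-box in 6 (8.96%, against 10.4% and 7.43%). The ETS site was about as frequent in members called higher (44.2% of 52) as in those not called (41.7% of 12) and was in 0 of 3 that fell, and the YY1 site was in 30.8%, 16.7% and 33.3%. These shares are a description and were not tested.

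The following stretches of 60 bases, shown because these members rose strongly and hold an ETS site upstream of the start, have in capitals each motif match, on either strand, that lies whole within the stretch. MRPL47 is at chr3:179604671-179604730 (minus strand), MRPL33 at chr2:27771659-27771718 (plus), MRPS18C at chr4:83455836-83455895 (plus), MRPS31 at chr13:40771191-40771250 (minus) and MRPS23 at chr17:57850045-57850104 (minus). MRPL47 holds a YY1 match before its ETS match, and MRPS18C an E-box after it. The log2 rises were 1.21, 1.03, 0.92, 0.90 and 0.85 in this order.
MRPL47: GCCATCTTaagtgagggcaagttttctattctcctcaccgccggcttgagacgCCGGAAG
MRPL33: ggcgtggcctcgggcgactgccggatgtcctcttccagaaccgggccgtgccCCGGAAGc
MRPS18C: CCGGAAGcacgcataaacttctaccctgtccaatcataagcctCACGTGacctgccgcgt
MRPS31: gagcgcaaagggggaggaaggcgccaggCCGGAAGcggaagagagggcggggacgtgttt
MRPS23: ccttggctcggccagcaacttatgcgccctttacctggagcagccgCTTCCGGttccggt

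The members with the largest rises, MRPS17 and MRPL19, had no match in the window of 300 bases. Their last 60 bases, at chr7:55951817-55951876 and chr2:75646723-75646782 (both plus strand), are shown for comparison with those of MRPL24, which fell, at chr1:156741089-156741148 (minus strand) and likewise without a match. Of the other members that fell, MRPL34 had no match in its window, while MRPL45 held an NRF1, an E-box and a YY1 match. MRPL10 was not matched to a promoter.
MRPS17: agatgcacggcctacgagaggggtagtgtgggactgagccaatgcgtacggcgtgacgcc
MRPL19: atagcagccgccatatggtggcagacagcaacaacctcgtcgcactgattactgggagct
MRPL24: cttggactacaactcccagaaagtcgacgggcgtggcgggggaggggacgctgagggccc

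Several members share their upstream region with a gene that runs the other way. In RefSeq 21 members had 22 such neighbours starting within 1000 bases, and 15 neighbours that are not members were measured. Of these, 5 were called higher, 2 lower and 8 not called, with a median log2 difference of 0.16. Over all measured genes 24.3% were called higher and 33.3% lower, with a median of -0.10. Whether the shared region plays a part was not tested. Among the pairs whose member rose, the neighbour rose in 4, fell in 2 and did not pass in 5. PSMA2, a proteasome subunit beside MRPL32, rose by 0.61 ± 0.06 log2 units, as MRPL32 did by 0.62 ± 0.06. MRPL46 and MRPS11, which face each other, both rose, by 0.38 ± 0.07 and 0.61 ± 0.08. MRPL49 rose by 0.23 ± 0.06 where FAU, a fusion gene whose product includes a cytosolic ribosomal protein, stood at -0.41 ± 0.11, a value that became 0.0935 after quantile normalization. MRPL49 did not pass without high glucose replicate 1 (adjusted p = 0.0554) or low glucose replicate 2 (adjusted p = 0.0748), nor FAU without low glucose replicate 1 (adjusted p = 0.0796) or 2 (adjusted p = 0.124).

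**Figure D5:**
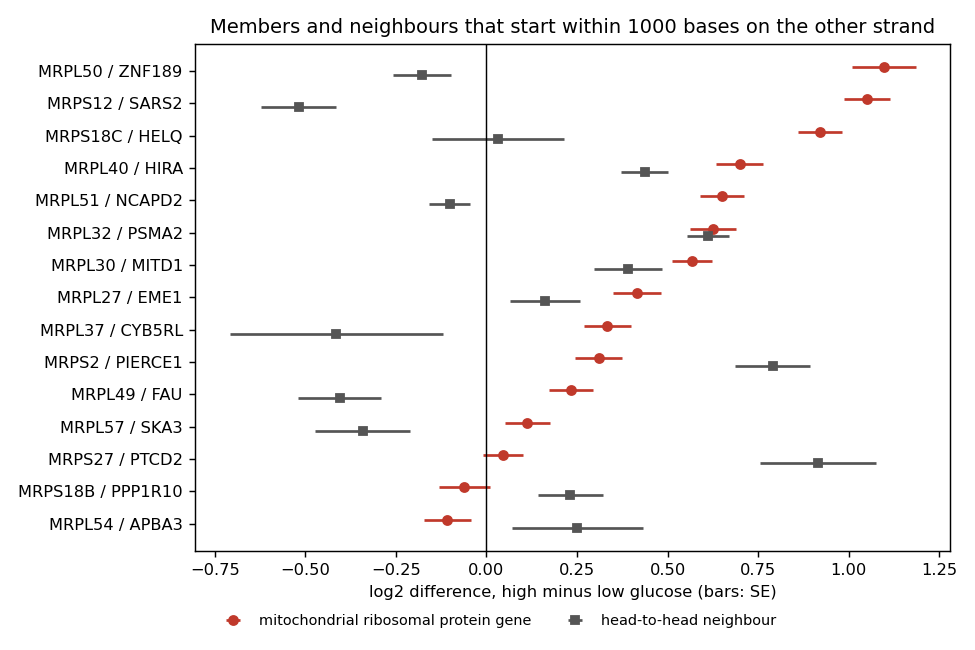
Log2 difference between high and low glucose (SE bars) for members (red circles) and the gene that starts within 1000 bases on the other strand (grey squares), for the 15 pairs with a measured neighbour that is not itself a member. MRPL32 and PSMA2 lie together at 0.62 and 0.61, while MRPS12 (1.05) and SARS2 (-0.52) lie on opposite sides of 0.

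MRPS12 and its neighbour moved in opposite directions. SARS2, the mitochondrial seryl-tRNA synthetase, starts 181 bases away and read 238 and 272 in high and 355 and 375 in low glucose, so that it fell by 0.52 ± 0.10 log2 units (limma adjusted p = 0.0038), while MRPS12 rose by 1.05 ± 0.06. The 180 bases between both starts, at chr19:38930764-38930943 and read on the MRPS12 strand, hold no whole match of the motifs searched and are shown because they lie before both genes. The MRPS12 window of 300 bases does hold 1 ETS and 1 YY1 match, of which the YY1 match lies outside this stretch and the ETS match runs over its end.
MRPS12 to SARS2: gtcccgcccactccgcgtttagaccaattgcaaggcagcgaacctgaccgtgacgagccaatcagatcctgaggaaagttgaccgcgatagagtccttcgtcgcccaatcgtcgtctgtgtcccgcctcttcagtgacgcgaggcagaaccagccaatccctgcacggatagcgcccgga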

How the data were processed

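Biotinylated cRNA made from total RNA was hybridised, per the labels' protocols. The authors deposited linear signal intensities, 1 per probe set and array. The submitters' processing notes name GCOS without a version. In the values, each array had already been scaled to a 2% trimmed mean of 200.02. Differences are relative to this mean of linear signals, to which bright probe sets contribute most. It lay above the median signal, which was 33.3 and 33.8 on the high and 38.7 and 36.7 on the low glucose arrays. Detection calls were not used here. The number of arrays limits the precision.

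Signals were log2-transformed with no pseudocount and not normalized again. After removal of 62 control probe sets, those with a mean log2 signal at or above the median were kept. Here GEO's platform annotation gave 1 gene for 41097 probe sets, several for 1801 and none for 11777. Symbols were updated by gene identifier. Each gene was represented by its brightest probe set. The glucose groups were tested in R 4.3.3 by limma 3.58.1 (lmFit, eBayes with trend) over 4 arrays with no covariate, two-sided, with Benjamini-Hochberg adjustment. Errors are standard errors of the fit. The fit was tested on simulated data. The members and gene lists were chosen with earlier results of these data known. Genes were named as the 10 largest rises and the falls among members past the threshold with no overlap, members with opposed probe sets, MRPL12, MRPS12 and the MRPS18 paralogs, and 4 genes per companion list. Other genes named, neighbours and mitochondrially encoded transcripts included, were chosen after their values were seen.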

Additional observations from a re-analysis of the deposited data

How the results depend on the processing

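The results were recomputed under 14 alternatives. The number of members called lower kept within 1.5 times its value except with median centring, where it was 1. The number called higher did so except without _x_at and _s_at probe sets, where 23 of 40 measured members and 20.5% of all genes were called higher. The median log2 difference of the members was 0.47 with quantile normalization, 0.66 with median centring, 0.43 with the mean of probe sets and 0.37 without _x_at and _s_at probe sets. Leaving out 1 array gave member medians of 0.47 to 0.54, where the all-gene median was -0.12 to -0.08. The members' median stayed 0.49 to 0.68 above that of all genes in every alternative. With the replicate block 60 members were called higher and 6983 genes in all, against 59 and 7049. The replicate numbers did not pair the arrays (r of deviations -0.004), and no label says that they mark a batch. The 2 arrays per group limit the precision.

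Of the values of single members over the alternatives, 975 kept their side of the threshold, 20 lost the call, 14 gained it and 6 reversed. The 975 include values that changed sign while passing neither in the main fit nor in the alternative. The log2 difference stayed above 0 in every setting that measured them for 61 members, and below 0 for 4. With the mean of probe sets MRPS14 turned to -0.0568, MRPS5 to -0.0605 and MRPL44 to -0.0357. Without _x_at and _s_at probe sets MRPS14 turned to -0.75, MRPS5 to -0.24 and MRPS15 to -0.15. Beside the members, ATP6 turned to 0.10 and, past the threshold, to 0.66 in these settings and FAU to 0.0935, also past it (adjusted p = 0.0448), with quantile normalization. Averaging probe sets or leaving out _x_at and _s_at names changes which probe sets are read. The cause of these turns was not tested. In all, 44 of the 75 members were called higher in each of the settings that measured them. Only 40 members were measured in every setting, and 20 of these were called higher in every one.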
